A study of Mus musculus with 6 samples.

Results

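The genes described here are 10 genes through which fat cells store lipid or signal to other tissues: Lpl, Cd36, Fabp4, Plin1, Cidec, Aqp7, Thrsp, Cfd, Retn and Lep. They were taken as a list of named adipocyte effector genes and were matched by symbol to the Ensembl identifiers of a table of 55401 mouse genes, of which 29043 had at least 1 count. In C3H10T1/2 cells with a control hairpin, the summed level of the 10 genes was 5.10 CPM (counts scaled to library size) before differentiation and 164.9 CPM after 7 days in osteogenic medium. In cells depleted of NFIB the same sums were 4.37 and 17.8 CPM, and in cells depleted of MLL1 they were 4.24 and 8.85 CPM. Cd36 alone made up 11.8 of the 17.8 CPM, and Fabp4 alone 4.84 of the 8.85 CPM.

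A fat cell holds triglyceride in a large lipid droplet. Lipoprotein lipase (Lpl) frees fatty acids from circulating lipoproteins, Cd36 takes part in their uptake across the cell membrane and Fabp4 binds them in the cytoplasm. Perilipin 1 (Plin1) coats the droplet and controls the access of lipases to it, and Cidec promotes the growth of droplets by fusion. Aqp7 is a channel that lets glycerol leave the cell, and Thrsp is a nuclear protein linked to lipogenesis. Cfd encodes adipsin, a serine protease of the complement system, Retn encodes resistin and Lep encodes leptin, the hormone that reports fat stores to the brain. Many of these genes are known targets of PPARγ and C/EBPα, the transcription factors that drive fat cell differentiation.

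C3H10T1/2 cells are a mouse line of mesenchymal stem cells, which can be led towards bone, cartilage, fat or muscle. RNA-seq was performed on cells carrying a control hairpin (shControl, labelled WT), a hairpin against NFIB (shNFIB, labelled NFIB knockdown) or a hairpin against MLL1 (shMLL1, labelled MLL1 knockdown). Each line was sampled untreated at day 0 and after 7 days in osteogenic medium that contained dexamethasone, a glucocorticoid, at 0.1 µM, with β-glycerophosphate at 20 mM and ascorbic acid 2-phosphate at 100 µg/ml. Every one of the 6 conditions was measured in 1 library. Whether a line came from 1 clone or from a pool of infected cells is not given in the sources used here. All lines grew in the same serum-containing medium before day 0.

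The depth was 21608680 counts in shMLL1 at day 7 and between 29086652 and 34774066 counts in the other 5 libraries, so that 3 counts were worth 0.0939 to 0.123 CPM. Nfib, the target of the shNFIB hairpin, had 1115 and 241 counts at day 0 and day 7 in shNFIB against 3715 and 2546 in shControl. Kmt2a, which encodes MLL1 and is the target of the shMLL1 hairpin, had 933 and 850 counts in shMLL1 against 2387 and 2022 in shControl. In shMLL1, Nfib had 1976 and 1774 counts. Scaled to library size, it was at 65.5 CPM there against 116.3 in shControl at day 0. At day 7 the 2 levels were closer, at 72.7 against 83.5 CPM. With 1 library a condition, differences between 2 libraries carry no test, and an interval beside them covers counting error only. Levels were compared as ratios of CPM after TMM scaling (trimmed mean of M-values), and a library with 0 counts was put at a floor of 3 counts, which makes the ratio a bound. The changes that can be tested against a spread between libraries are those of a fit to all 6 libraries that holds a term for the line and one for the day (edgeR's quasi-likelihood test), in which the 3 lines stand in for replicates of the day.

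To show what lies before the start sites of these genes, the bases upstream of the RefSeq start were taken for 6 of the 10 genes (RefSeq, GRCm38.p6, written 5′ to 3′). RefSeq windows were at hand for 8 of the 10 genes, all but Lpl and Fabp4, and those of Plin1 and Thrsp, which run into annotated exons, are not printed. Bases from the first annotated exon on were left out. Capitals mark, on either strand, the NFI half-site (TTGGC), the C/EBP palindrome (TTGCNNAA) and the PPAR element DR1 (AGGTCA, 1 base of any kind and AGGTCA again, with up to 2 mismatches in all).
Cfd, chr10:79890603-79890852, plus strand: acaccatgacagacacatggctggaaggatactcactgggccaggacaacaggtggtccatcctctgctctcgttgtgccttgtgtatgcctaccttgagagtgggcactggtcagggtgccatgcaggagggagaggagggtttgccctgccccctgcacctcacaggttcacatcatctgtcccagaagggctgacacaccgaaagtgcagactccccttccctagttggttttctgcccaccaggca
Retn, chr8:3655520-3655769, plus strand: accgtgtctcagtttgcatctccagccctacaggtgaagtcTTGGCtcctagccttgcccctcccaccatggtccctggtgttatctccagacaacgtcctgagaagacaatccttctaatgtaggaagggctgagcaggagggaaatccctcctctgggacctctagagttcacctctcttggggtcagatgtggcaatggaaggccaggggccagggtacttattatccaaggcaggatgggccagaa
Lep, chr6:29059971-29060219, plus strand: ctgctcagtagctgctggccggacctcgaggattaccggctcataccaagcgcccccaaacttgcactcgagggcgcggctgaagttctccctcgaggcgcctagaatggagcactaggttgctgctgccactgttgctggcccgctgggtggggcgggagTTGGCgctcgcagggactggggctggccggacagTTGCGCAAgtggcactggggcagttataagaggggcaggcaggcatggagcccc
Cidec, chr6:113434765-113435014, minus strand: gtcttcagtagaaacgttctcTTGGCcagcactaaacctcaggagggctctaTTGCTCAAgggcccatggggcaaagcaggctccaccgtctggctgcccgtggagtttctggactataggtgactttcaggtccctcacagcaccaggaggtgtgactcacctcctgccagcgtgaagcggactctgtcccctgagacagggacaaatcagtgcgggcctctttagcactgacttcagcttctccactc
Aqp7, chr4:41048140-41048386, minus strand: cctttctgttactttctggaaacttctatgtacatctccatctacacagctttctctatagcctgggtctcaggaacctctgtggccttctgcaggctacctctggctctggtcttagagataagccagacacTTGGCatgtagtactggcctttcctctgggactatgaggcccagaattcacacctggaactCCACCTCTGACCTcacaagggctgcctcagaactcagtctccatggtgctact
Cd36, chr5:17835897-17836146, minus strand: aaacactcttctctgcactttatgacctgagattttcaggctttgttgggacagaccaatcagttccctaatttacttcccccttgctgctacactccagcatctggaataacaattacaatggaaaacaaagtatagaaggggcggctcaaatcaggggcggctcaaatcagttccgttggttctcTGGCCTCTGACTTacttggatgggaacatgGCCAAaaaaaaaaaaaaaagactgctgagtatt

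The adipsin and resistin stretches end just before the only RefSeq start listed for these genes, while Cidec and Aqp7 each have 2 listed starts, of which 1 is shown. The other Cidec start lies at the 5′ end of the annotated gene, and its window holds none of these motifs. In windows of 300 bases (250 before and 50 after the start), the NFI half-site was found in 6 of the 8 genes (Cidec, Retn, Thrsp, Aqp7, Lep and Cd36). By window it was found in 7 of their 10, and 46.7% of all 32841 mouse windows hold it. The full NFI palindrome, TTGGC and GCCAA with 5 bases between them, was found in none of the 8 and in 0.0365% of all windows. The C/EBP palindrome was present in Plin1, Cidec and Lep (3 of the 10 windows) and in 10.8% of all windows. The DR1 element was present in Aqp7 and Cd36 (3 of the 10 windows) and in 3.86% of all windows. The TATA box (TATAAA) was present in none of the 8 genes and in 13.6% of all windows. These are matches of letters and say nothing of binding in these cells. The stretches shown for Cd36 and Cidec lie inside the spans of the annotated genes.

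In shControl cells, 9 of the 10 genes were at least 2-fold higher at day 7 than at day 0, where 23.0% of the 16786 genes compared were that much higher and 14.9% that much lower. Fabp4 was the exception. Their median log2 ratio was 5.53, and that of all genes compared was 0.00. At day 0, 6 of the 10 genes had no count in shControl, and without Fabp4 the summed level was 0.470 CPM. In bulk RNA, more cells of a type and more RNA per cell cannot be told apart.

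**Figure D1:**
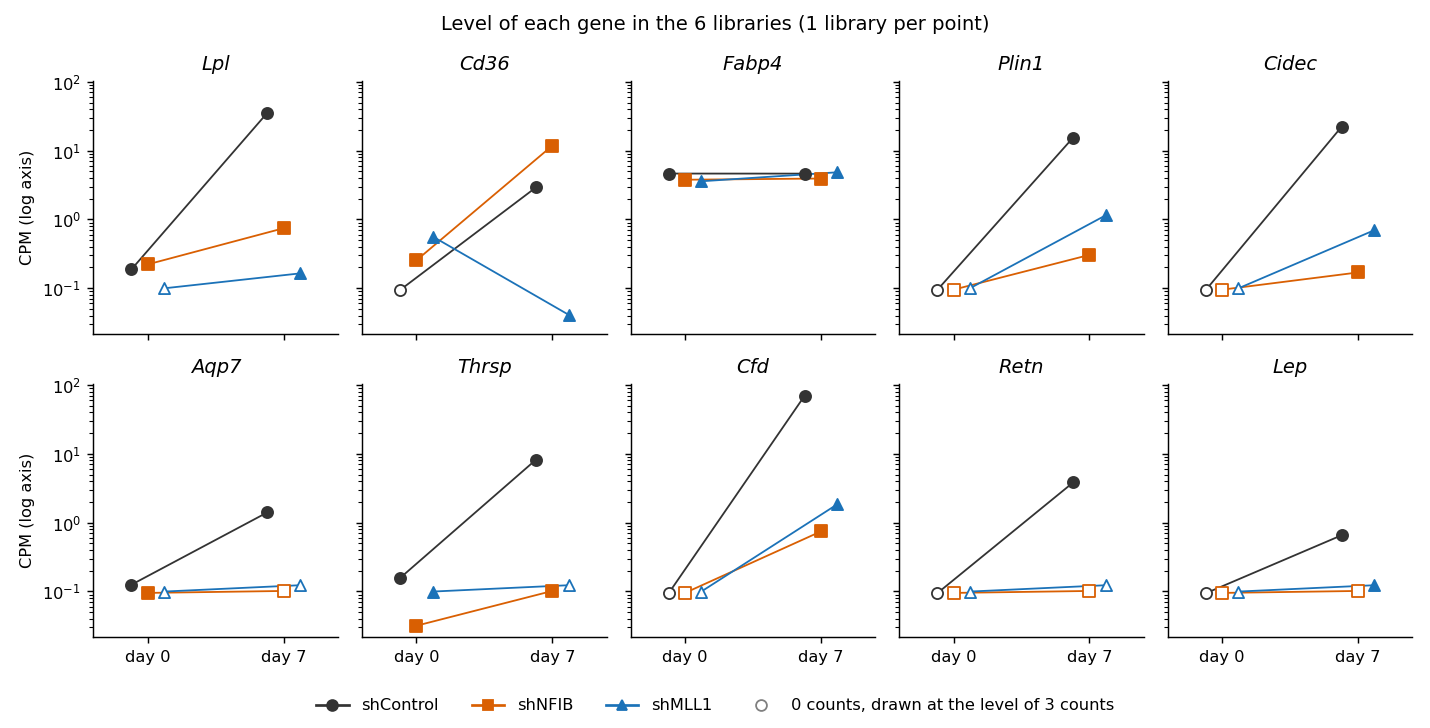
Level of each of the 10 genes in CPM (log axis) at day 0 and day 7, 1 point per library, with the 2 days of a line joined and libraries without a count drawn open at the level of 3 counts. In 8 of the 10 panels shControl at day 7 is the highest point, while Fabp4 is flat and Cd36 is highest in shNFIB at day 7.

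Among the genes of fatty acid supply, Lpl (ENSMUSG00000015568, GRCm38 chr8:68880491-68907448) had 6 counts at day 0 and 1084 at day 7 in shControl, 7 and 22 in shNFIB, and 0 and 4 in shMLL1. Only the shControl library at day 7 stood out, far above the other 5, all of them at or below 22 counts. In shControl Lpl was 189-fold higher at day 7 (log2 ratio 7.56, 95% counting interval 6.44 to 9.01), and in shNFIB 3.36-fold higher (log2 ratio 1.75, 0.47 to 3.22). At day 7 it was 47.8-fold lower in shNFIB than in shControl and 217-fold lower in shMLL1 (log2 ratios -5.58 and -7.76).

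Cd36 (ENSMUSG00000002944, chr5:17781690-17888801) was higher at day 7 than at day 0 in shControl and shNFIB and lower in shMLL1. It had 0 and 89 counts at day 0 and day 7 in shControl, 8 and 349 in shNFIB, and 17 and 1 in shMLL1. It was highest in shNFIB at day 7, where Cd36 was 4.04-fold higher than in shControl (log2 ratio 2.02, 1.68 to 2.37), and 8.08% of all genes compared there were at least 2-fold higher. From day 0 to day 7 it was at least 31.1-fold higher in shControl, 46.6-fold higher in shNFIB (log2 ratio 5.54, 4.55 to 6.77) and lower in shMLL1 (log2 ratio -3.78, -9.17 to -1.11). At day 0 it was lowest in shControl and highest in shMLL1, with a log2 ratio of at least 2.58 between them. Of the 10 genes, only Cd36 exceeded its shControl level at day 7 by 2-fold in shNFIB.

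Fabp4 (ENSMUSG00000062515, chr3:10204088-10208576) had 148 and 141 counts in shControl, 119 and 116 in shNFIB, and 108 and 118 in shMLL1. Its level lay between 3.58 and 4.84 CPM in all 6 libraries, with neither the day nor the line setting a library apart. In the fit over 6 libraries its log2 fold change with the day was 0.16 ± 0.30 (SE; edgeR quasi-likelihood adjusted p = 0.695). The annotated exons of Fabp4 cover its whole span of 4489 bases because of a transcript that retains introns, while its longest coding transcript has 896 bases, so these counts do not separate spliced from unspliced RNA. Before differentiation, Fabp4 made up 84.4% to 90.8% of the counts of the 10 genes, and 2.80% in shControl at day 7.

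Both droplet genes were at 0 at day 0 in every line. Plin1 (ENSMUSG00000030546, chr7:79720218-79732903) had 472 counts at day 7 in shControl, 9 in shNFIB and 28 in shMLL1. Cidec (ENSMUSG00000030278, chr6:113424634-113435760) had 681 counts at day 7 in shControl, 5 in shNFIB and 17 in shMLL1. Both genes were found at day 7 in all lines, with shControl highest and shMLL1 above shNFIB. In shControl, Plin1 was at least 165-fold higher at day 7 and Cidec at least 238-fold. At day 7, Plin1 was 50.9-fold lower in shNFIB and 13.5-fold lower in shMLL1 than in shControl (log2 ratios -5.67, -6.81 to -4.73, and -3.75, -4.36 to -3.20). Cidec was 132-fold and 32.1-fold lower (log2 ratios -7.05, -8.67 to -5.82, and -5.00, -5.79 to -4.31). The intervals of the 2 knockdown lines did not overlap for Plin1 or for Cidec, which compares these 2 libraries and not the knockdowns.

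The glycerol channel and the lipogenic gene had at most 3 counts in the knockdown lines. Aqp7 (ENSMUSG00000028427, chr4:41033074-41048139) had 4 and 43 counts in shControl, 3 and 0 in shNFIB, and no count in shMLL1 on either day. Thrsp (ENSMUSG00000035686, chr7:97412938-97417730) had 5 and 251 counts in shControl, 1 and 3 in shNFIB, and 3 and 0 in shMLL1. For both genes the only library over 5 counts was shControl at day 7. In shControl, Aqp7 was 11.3-fold higher at day 7 (log2 ratio 3.49, 2.03 to 5.43) and Thrsp 52.6-fold (5.72, 4.48 to 7.35). At day 7, Aqp7 was at least 13.9-fold lower in shNFIB than in shControl, and its log2 ratio in shMLL1 was -3.52 or less. Thrsp had a log2 ratio of -6.34 (-8.63 to -4.78) in shNFIB and was at least 67.0-fold lower in shMLL1.

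Of the secreted factors, Cfd (ENSMUSG00000061780, chr10:79890853-79892655) had no count at day 0 in any line and 2129, 22 and 45 counts at day 7 in shControl, shNFIB and shMLL1. It reached 69.8 CPM in shControl and was present at day 7 in every line. It was at least 744-fold higher at day 7 in shControl, at least 7.83-fold in shNFIB and at least 18.6-fold in shMLL1. At day 7 it was 93.8-fold lower in shNFIB (log2 ratio -6.55, -7.23 to -5.95) and 37.9-fold lower in shMLL1 (-5.24, -5.70 to -4.82) than in shControl.

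Retn (ENSMUSG00000012705, chr8:3655770-3660110) was detected in 1 library only, with 117 counts in shControl at day 7 and 0 in each of the other 5. It was at least 40.9-fold higher there than at day 0, and at least 37.8-fold and 31.2-fold lower in shNFIB and shMLL1 at day 7. Lep (ENSMUSG00000059201, chr6:29060220-29073877) had 20 counts in shControl at day 7, 3 in shMLL1 at day 7 and none in the other 4 libraries. Leptin RNA was near the limit of detection even where it was highest. It was at least 6.99-fold higher at day 7 in shControl and at least 6.46-fold lower in shNFIB, and its log2 ratio in shMLL1 was -2.42 (-4.81 to -0.66).

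Per kb of the longest coding transcript, the order of the levels in shControl at day 7 was led by Cfd at 75.7 CPM per kb, followed by Cidec at 13.0 and Lpl at 8.64. Thrsp, Plin1, Fabp4 and Retn lay between 6.45 and 3.37 CPM per kb. Cd36 had 0.859, Aqp7 0.558 and Lep 0.201 CPM per kb. With all annotated exons as the length, Cfd and Cidec remained first and second, Cd36, Aqp7 and Lep remained last, and the order among the middle 5 changed, since Lpl then had 3.39, Thrsp 3.76 and Fabp4 1.03 CPM per kb. In shNFIB at day 7, Fabp4 and Cd36 were highest, at 4.38 and 3.47 CPM per kb of coding transcript. In shMLL1, Fabp4 was highest at 5.40, followed by Cfd at 2.00. With all annotated exons as the length, Fabp4 was not highest in either knockdown line. Cd36 had 3.29 and Fabp4 0.874 CPM per kb in shNFIB, and Cfd had 2.00 and Fabp4 1.08 in shMLL1.

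**Figure D2:**
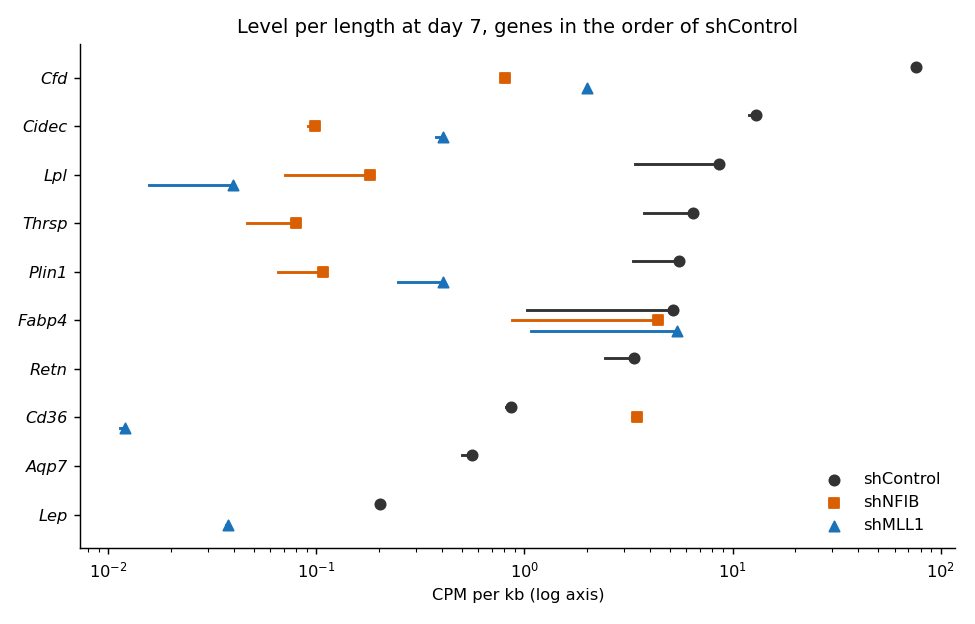
Level at day 7 in CPM per kb (log axis) for each gene and line, with the symbol at the value per longest coding transcript and the bar reaching to the value per total annotated exon length. Libraries without a count have no symbol. Cfd leads in shControl at 75.7 CPM per kb, and Fabp4 is the only gene at nearly the same place in all 3 lines.

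Taking the genes as a group, 8 of the 10 were at least 2-fold lower in shNFIB than in shControl at day 7, where 13.3% of the genes compared were that much lower. In shMLL1, 9 of the 10 were lower, against 7.16% of the genes compared, and none was higher, against 8.59%. The median log2 ratio was -5.41 for shNFIB and -4.98 for shMLL1, beside -0.01 and -0.03 for all genes compared. Both comparisons rest on the same shControl library at day 7. Before differentiation there was little to compare. In shNFIB only Fabp4 reached 10 counts in either library, and it differed by less than 2-fold, where 7.36% of the genes were higher and 6.33% lower. In shMLL1, Fabp4 and Cd36 could be compared, and Cd36 was higher by the bound given above, where 11.1% of the genes were higher and 9.40% lower.

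**Figure D3:**
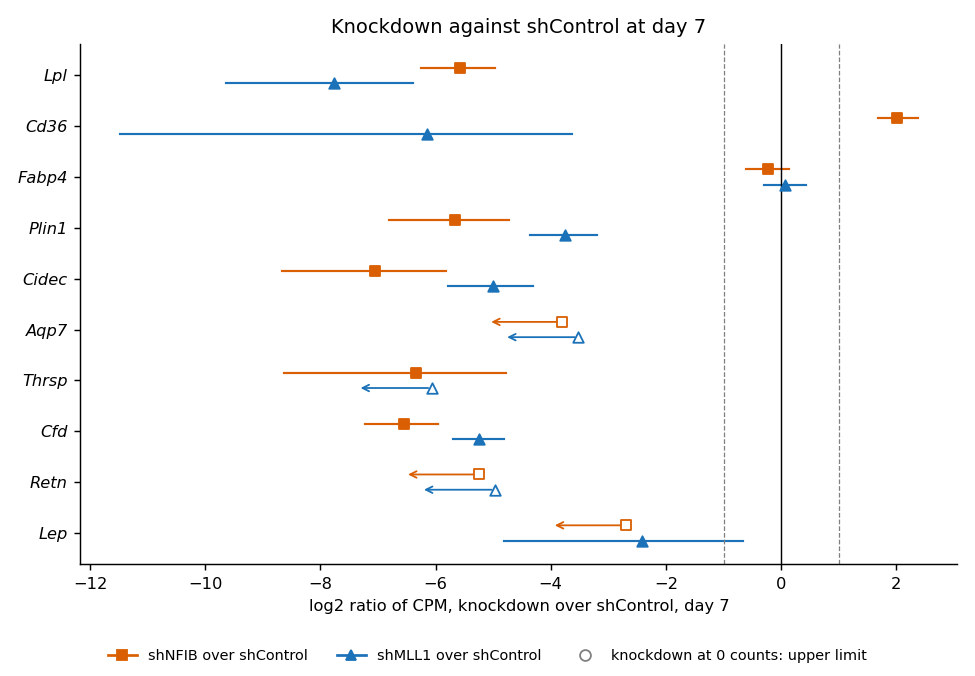
Log2 ratio of CPM in each knockdown line over shControl at day 7, with 95% counting intervals as bars, and with open symbols and arrows where the knockdown library had no count and the value is an upper limit. Dashed lines mark 2-fold. The points lie at -2.42 or below, except Fabp4 in both lines and Cd36 in shNFIB.

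Some of these genes also differed between day 0 and day 7 in the knockdown lines. In shNFIB, 4 of the 10 genes reached 10 counts in 1 of the 2 days, and 3 of them (Lpl, Cd36 and Cfd) were at least 2-fold higher at day 7, where 16.6% of the genes compared were higher and 13.9% lower. In shMLL1, 5 genes could be compared. Plin1, Cidec and Cfd were at least 2-fold higher and Cd36 lower, where 25.8% of the genes were higher and 19.9% lower. In both lines, each gene called reached 10 counts only in the library where it was higher. The counts of genes called thus partly follow from this filter and say nothing of all 10 genes. In shMLL1 the log2 ratio of day 7 to day 0 was at least 3.53 for Plin1 and at least 2.81 for Cidec.

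In the fit over 6 libraries, 6 of the 10 genes passed the filter on low counts, and Retn, Thrsp, Aqp7 and Lep did not. Cfd, Cidec, Plin1 and Lpl rose from day 0 to day 7, with edgeR quasi-likelihood adjusted p-values of 0.000729, 0.00202, 0.00223 and 0.0236, where 16.8% of the 16742 genes tested rose and 16.5% fell. The fitted log2 fold change of Lpl was 5.13 ± 1.29 (SE). The other 3 had no count at day 0 in any line, so that the fit matches their day 7 counts exactly. Their fitted size depends on the prior count, and their p-values rest on the spread of other genes and not on their own. Genes that are high at day 7 pass the filter more readily, so their count says nothing of all 10 genes. Without the shControl line, 3 of the 10 genes passed the filter and Cfd alone was called. Cd36 did not pass the test, with a log2 fold change of 3.58 ± 1.84 and an adjusted p of 0.167 (edgeR), and it was called when shMLL1 was left out (log2 fold change 5.98). Without shNFIB its log2 fold change was 1.69, and without shControl 1.98.

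For the knockdowns over both days, the same fit counts a difference that depends on the day as error. Cfd fell in shNFIB (edgeR quasi-likelihood adjusted p = 0.0355), where 0.263% of all genes tested fell. Cidec, Plin1 and Lpl had edgeR adjusted p-values of 0.0629, 0.0958 and 0.341. Cfd, Cidec and Plin1 had no count at day 0 in any line and passed the filter only through day 7. For either knockdown, their values thus compare 1 library with 1 at day 7 (Cfd, 22 counts in shNFIB against 2129 in shControl). Their p-values rest on the spread of other genes. None of the 6 genes passed for shMLL1, where 0.0179% of all genes tested fell. Fitted log2 fold changes in shMLL1 were -7.14 for Lpl, -3.68 for Plin1, -4.92 for Cidec and -5.20 for Cfd. Those of Fabp4 and Cd36 were -0.15 and 0.20. DESeq2 called 1 of the 10 in each knockdown, Thrsp in shNFIB and Lpl in shMLL1, and its share over all genes was not computed.

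The other genes of lipid storage were compared through 8 lists with 78 genes in all, of which 68 were tested in the fit. With the day, 19 of the 68 rose and 15 fell (edgeR, adjusted p under 0.05), where 16.8% of all genes tested rose and 16.5% fell, and no gene of the lists was called for either knockdown. At day 7, the medians of the 8 lists lay between -0.39 and 0.13 (log2 ratio) in shNFIB against shControl and between -0.65 and -0.19 in shMLL1. Of the genes compared, 13 of 68 were at least 2-fold lower and 5 higher in shNFIB, where 13.3% of all genes compared were lower and 8.08% higher. In shMLL1, 19 of 69 were lower and 7 higher, where 7.16% of all genes compared were lower and 8.59% higher.

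**Figure D4:**
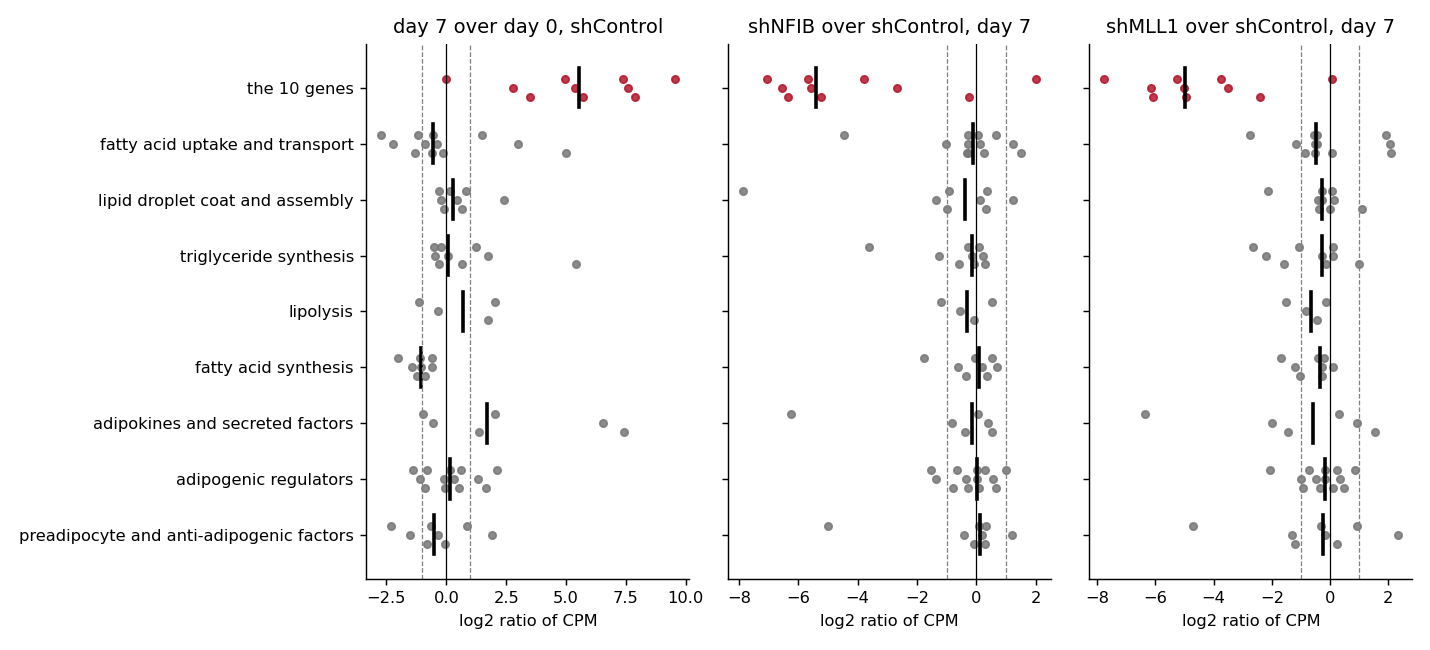
Log2 ratio of CPM of each gene compared (points) and the list median (bar), for the 10 genes in red and 8 lists of related genes in grey, in 3 comparisons of library pairs. Dashed lines mark 2-fold, and genes with a library at 0 are drawn at their bound. The 10 genes have medians of 5.53, -5.41 and -4.98, while no list median in the 3 panels is below -1.08 or above 1.70.

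Among the genes of triglyceride synthesis, 3 of 9 rose with the day and 1 fell. Gpd1, which makes the glycerol 3-phosphate backbone of triglyceride, had 32 and 1302 counts in shControl, 26 and 102 in shNFIB, and 15 and 166 in shMLL1. Against shControl at day 7, Gpd1 had a log2 ratio of -3.63 in shNFIB (-3.93 to -3.34) and of -2.65 for shMLL1 (-2.89 to -2.42). Dgat1 and Lpin1, which act late in the pathway, rose as well, with fitted log2 fold changes of 0.98 and 1.98 (edgeR adjusted p = 0.0115 and 0.0145). Dgat2, which attaches the last fatty acid, was lower in both knockdown lines on both days, with log2 ratios of -1.11 and -1.27 in shNFIB and -1.32 and -2.21 in shMLL1.

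In the list of uptake and transport, Slc2a4, the insulin-responsive glucose transporter, had 3 and 92 counts in shControl, 1 and 4 in shNFIB, and 0 and 11 in shMLL1. Slc2a4, Angptl4 and Slc27a1 rose with the day and Fabp5, Acsl1, Acsl3 and Acsl4 fell (12 tested). Angptl4, an inhibitor of lipoprotein lipase, rose by a fitted log2 fold change of 2.32 (edgeR adjusted p = 0.0038) and was within 2-fold of shControl at day 7 in both knockdown lines. Gpihbp1, the endothelial anchor of lipoprotein lipase, had no count in any library.

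The droplet coat proteins other than Plin1 were differently distributed. Plin4 had 3921 and 19877 counts in shControl, 3680 and 9592 in shNFIB, and 1378 and 13078 in shMLL1, and rose with the day (log2 fold change 2.48, edgeR adjusted p = 0.00582). Plin2, the coat protein of droplets in most cell types, differed by 2-fold only in shNFIB, with 28063 counts at day 7 and a log2 ratio of 1.25 (1.22 to 1.28) over shControl. Cidea had at most 1 count in any library. G0s2, an inhibitor of the lipase Pnpla2, had 316 and 243 counts in shControl, 0 and 1 in shNFIB, and 4 and 44 in shMLL1. It was already low in both knockdown lines at day 0.

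Of the 4 lipolytic genes, Pnpla2 and Lipe rose with the day (log2 fold changes 1.41 and 1.44, edgeR adjusted p = 0.00516 and 0.0182). In the list of fatty acid synthesis, 5 of 8 genes fell and none rose. Acly, which makes cytosolic acetyl-CoA, fell by 1.36 on the log2 scale (edgeR adjusted p = 0.0104), and Scd1, Elovl6, Me1 and Acaca fell by 0.77, 0.81, 0.93 and 0.66. Thrsp, the lipogenic gene among the 10, was thus higher in shControl at day 7 in the same library in which the synthesis genes had a median log2 ratio of -1.08 to day 0.

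Among 9 other secreted factors of fat tissue, Rarres2, Agt and Nampt rose with the day in the fit. Rarres2 encodes chemerin and had 34 and 2986 counts in shControl, 4 and 1649 in shNFIB, and 4 and 867 in shMLL1. Agt encodes angiotensinogen and had 16 and 2604, 5 and 3328, and 1 and 3966 counts. Both had at least 867 counts at day 7 in every line, while Cfd, Retn and Lep had at most 45 in the knockdown lines. Igf1, a growth factor of the same list, was low there as well, with 1083 and 2691 counts in shControl, 913 and 34 in shNFIB, and 930 and 26 in shMLL1. Adiponectin (Adipoq), the adipokine that defines mature fat cells, had 1 count at day 0 in shControl and in shMLL1 and none at day 7 in any line. Rbp4 and Retnla had no count in any library.

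Of 14 regulators of fat cell differentiation, 13 were tested in the fit, and Mlxipl had no count in any library. Pparg had 867 and 1279 counts in shControl, 1647 and 2489 in shNFIB, and 362 and 509 in shMLL1. At day 7 it was above shControl in shNFIB (log2 ratio 1.01, 0.91 to 1.10) and below it in shMLL1 (-1.01, -1.16 to -0.86), as Cd36 was. Cebpa had 608 and 313 counts in shControl, 232 and 119 in shNFIB, and 78 and 60 in shMLL1. It was lower in both knockdown lines on both days, with log2 ratios at day 7 of -1.35 in shNFIB and -2.06 in shMLL1. With the day, 4 of 13 regulators rose (Pparg, Klf15, Zfp423 and Nr1h3) and 2 fell (Cebpb and Klf5), while Cebpa had a log2 fold change of -0.63 (edgeR adjusted p = 0.129). Of the preadipocyte and anti-adipogenic factors, 2 of 8 rose and 3 fell, and Dlk1, which marks preadipocytes, went from 294 to 98 counts in shControl, from 121 to 0 in shNFIB and from 154 to 0 in shMLL1.

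All 10 mesenchymal markers had over 3 counts in every library. Their summed level in shControl was 19740 CPM at day 0 and 9118 CPM at day 7. There, 7 of the 10 were at least 2-fold lower at day 7 and 1 higher, where 14.9% of all genes compared were lower and 23.0% higher. In the fit, 3 fell with the day and none rose (edgeR, adjusted p under 0.05), where 16.5% of all genes tested fell and 16.8% rose. The part of that fall in the results was not tested. Of 12 general markers of fat cells, 9 had over 3 counts in shControl at day 7, 7 in shNFIB and 8 in shMLL1, with a summed level of 866, 485 and 634 CPM, of which Plin4 made up 652, 324 and 536 CPM. Pnpla3 had 106 counts at day 7 in shControl, none in shNFIB and 4 in shMLL1, and Adipoq and Adrb3 were at 0 or 1 count throughout. Of 8 markers of brown or beige fat, Prdm16 was at 0 and Ucp1 and Cidea at 1 count or less in all libraries. The 3 that could be compared in shControl were each at least 2-fold higher at day 7, where 23.0% of all genes compared were. Cox8b had 52 counts in shControl at day 7 and none elsewhere, and Cox7a1 had 5 and 14 counts in shControl. Ppargc1a, a coactivator of mitochondrial genes, had 414 and 1349 counts in shControl, 66 and 903 in shNFIB, and 424 and 791 in shMLL1, and rose with the day (log2 fold change 2.21, edgeR adjusted p = 0.0162).

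Macrophages also express Lpl and Cd36. Of 10 macrophage markers, 5 had over 3 counts in shControl at day 7 and 4 in each knockdown line, their summed level was 17.4 to 26.9 CPM in all libraries, and Adgre1, C1qa and Tyrobp were at 0 throughout. Cd14 made up 18.2 of 26.9 CPM in shControl at day 7. Of the 4 that could be compared in shControl, 2 were at least 2-fold higher at day 7, where 23.0% of all genes compared were. Cd68 had 62 and 217 counts and Csf1r 6 and 26. Cd68 rose with the day over the lines (log2 fold change 1.80, edgeR adjusted p = 0.00638), and the part of such cells in the levels of Lpl and Cd36 was not tested. Endothelial markers summed to 4.63 to 6.77 CPM at day 7 and to 12.9 to 27.6 CPM at day 0, with Kdr at 3 counts or fewer. Osteoblast markers summed to 138 CPM in shControl at day 7 and to 37.2 to 51.2 CPM in the other 5 libraries. Runx2 made up 117 of the 138 CPM, with 3561 counts there and 862 to 1047 elsewhere, and Ibsp was at 0 throughout. At day 7, 4 of the 6 markers compared were at least 2-fold lower and 1 higher in each knockdown line than in shControl. Of all genes compared, 13.3% were lower and 8.08% higher in shNFIB, and 7.16% lower and 8.59% higher in shMLL1. Phex had 25 counts at day 7 in shControl, 244 in shNFIB and 151 in shMLL1, and Alpl had 111, 215 and 2. Chondrocyte markers summed to 230 and 39.3 CPM in shControl, 183 and 7.21 in shNFIB and 13.3 and 16.1 in shMLL1, and muscle markers to 4.88 CPM or less. Whether the cells with Runx2 and those with Cfd RNA were the same was not tested.

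The genes whose profile over the 6 libraries was most like the median of the 10 were sought among 16267 genes with at least 50 counts, by the root mean square difference of log2(CPM + 0.5) values centred on each gene's mean. The 10 nearest were Cyp2e1, Slc25a48, Mrap, Adamts8, Pnpla3, Ndrg2, Col9a2, Spp1, Atp6v0d2 and Slc2a4, with differences of 0.173 to 0.413 and Pearson r of 0.974 to 0.997 over 6 libraries. Cyp2e1, a cytochrome P450, had 181 counts in shControl at day 7 and 2 or fewer in each other library. Mrap, an accessory protein of the ACTH receptor, had 182 counts there and at most 4 elsewhere. Pnpla3, a lipid droplet hydrolase, had 106 counts there and at most 4 elsewhere. Spp1, which encodes the bone matrix protein osteopontin, had 42101 counts in shControl at day 7 and from 6682 to 7406 in the other 5 libraries. Retn and Thrsp lay at 0.261 and 0.340 from the median to which they contribute, while Fabp4 and Cd36 lay at 1.26 and 1.71. Each of the 10 nearest genes was highest in shControl at day 7, which follows from their choice by nearness to a median that peaks there. All profiles share the same 6 libraries and their depth.

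**Figure D5:**
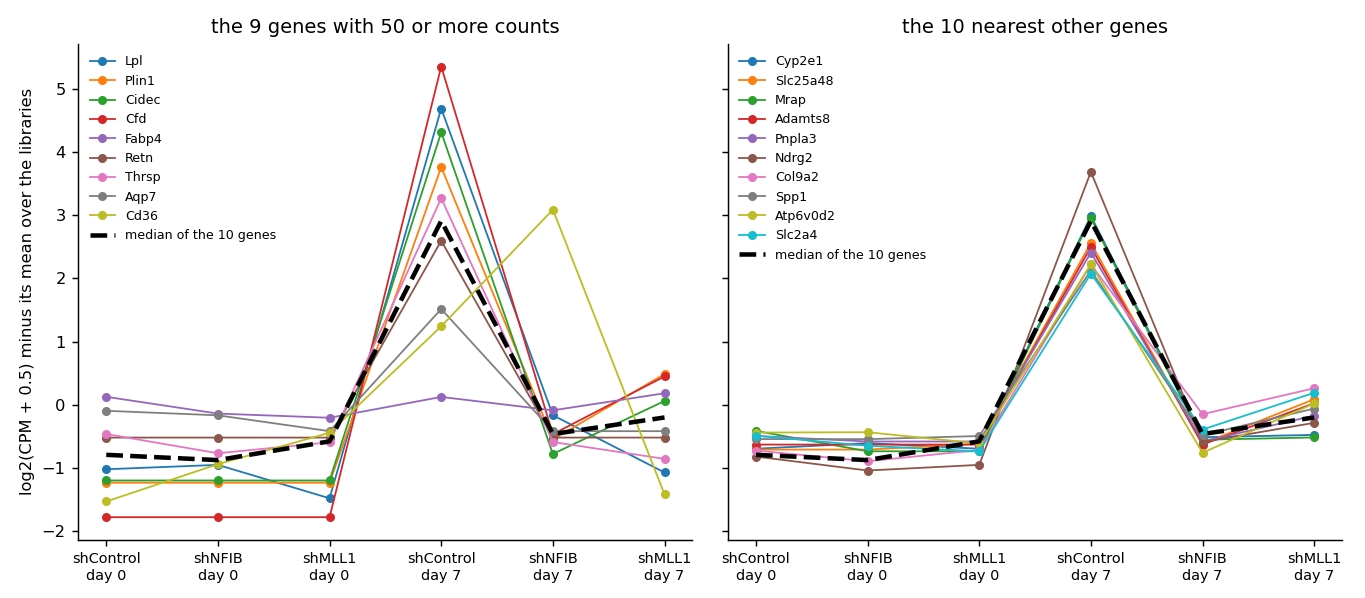
Profiles over the 6 libraries of 9 of the 10 genes (left; Lep had under 50 counts) and of the 10 nearest other genes (right), as log2(CPM + 0.5) minus the gene's mean over the libraries, with the median of the 10 genes dashed. Lines join the values of a gene and stand for no order. Shown on the left, Cd36 peaks in shNFIB at day 7 and Fabp4 stays near 0. On the right all 10 peak in shControl at day 7, as their choice by nearness to the median implies.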

How the data were processed

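The submitters' processing notes name Trimmomatic 0.39, HISAT2 2.2.1, SAMtools 1.12 and HTSeq 0.11.1, with GRCm38 (mm10) as the genome. The authors deposited the read counts of each Ensembl gene as counted, with no scaling. Their methods state a filter on mapping quality and removal of PCR duplicates. The strand setting and annotation release are not given in the sources used here. No annotated exon of the 10 genes overlaps that of another gene. Positions and lengths came from GENCODE M21, in which 55141 of 55401 identifiers had an entry.

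Library totals were 21608680 to 34774066. Counts were scaled by TMM in edgeR 4.0.16 (R 4.3.3). Pairs of libraries were compared, for genes with at least 10 counts in 1 of the 2, by the ratio of CPM with an exact (Clopper-Pearson) 95% interval, and called past 2-fold. Reads are not independent molecules, so intervals and floors of 3 counts cover counting error only. The fit over 6 libraries used edgeR's quasi-likelihood test on the 16742 genes kept by filterByExpr, with line as a block, since both days of a line come from the same cells (correlations of their deviations 0.424, 0.427 and 0.273), Benjamini-Hochberg adjustment and a threshold of 0.05. The methods name edgeR, TMM, a 5% false discovery rate and a fold change over 2, but no dispersion for single libraries. The lines are not replicate cultures, so p-values measure the spread among them (common coefficient of variation 0.281, 2 residual degrees of freedom). Cfd, Cidec and Plin1, without a count at day 0 in any line, leave no spread of their own in this fit. Their p-values rest on the spread of other genes. The steps were tested on simulated data. Figures and intervals used Python with scipy 1.17.1 and matplotlib 3.10.9.

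All 10 genes are named, list genes beside their list's count, and the 10 other genes nearest in profile. The members and lists were chosen with earlier results of these data known. Alternatives were other scalings, DESeq2 1.42.0, no filter, no block, each line left out, only the lines compared, an exact test at an assumed coefficient of variation of 0.2 or 0.4, whole intervals past 2-fold, a prior count of 2, and thinned counts.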

Additional observations from a re-analysis of the deposited data

Results flagged for a closer look

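Cd36 moved in opposite directions with the day in 2 lines. It had 0 counts at day 0 and 89 at day 7 in shControl, and 17 and 1 in shMLL1. The log2 ratio of day 7 to day 0 was at least 4.96 in shControl and -3.78 in shMLL1, a difference of -8.74. With 1 library a condition this difference was not tested. In shNFIB the log2 ratio was 5.54.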

How the results depend on the processing

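With 1 library a condition, no comparison of 2 libraries has a replicate check, and 4 of the 10 genes have too few counts for the fit over lines. Directions turned only for values that did not pass the test. The fitted log2 fold change of Cd36 in shMLL1 was 0.20, and -1.02 with only the 4 libraries of the lines compared, and that of Fabp4 with the day was 0.16, and ranged from -0.010 without shMLL1 to 0.21 without shNFIB. The ratio of Fabp4 between days in shControl, -0.00 (log2), was 0.01 with DESeq2's size factors and 0.10 with library size alone. The fitted day change of Cd36, 3.58, was 1.69 without shNFIB, 1.98 without shControl and 5.98 without shMLL1. The count of the 10 genes called higher at day 7 was 4 in the fit over 6 libraries, 7 without a filter on low counts, 1 without the line block (where 3 of the 10 passed the filter) and 1 to 3 with 1 line left out. Without shControl it was 1 (Cfd), without shMLL1 3 (Cd36, Cfd and Lpl) and without shNFIB 3 (Cfd, Cidec and Plin1). The count called lower in shNFIB was 1, and 6 without a filter. In shMLL1 it was 0, but 1 with DESeq2's Wald test, 6 without a filter and 3 with only the 4 libraries of the lines compared. The 6 were the same genes in both knockdowns (Cfd, Cidec, Lpl, Plin1, Retn and Thrsp). Each was far higher in shControl at day 7 than elsewhere, so both counts of 6 rest mainly on that 1 library. The shares of all genes called under these alternatives to the fit were not computed. Without a filter more genes are tested, and the cause of the other changes was not tested. Without a filter, 1 gene was at least 2-fold lower in shNFIB at day 0 instead of 0 (Thrsp, 1 count against 5). The other counts of pairs stayed within 1.5 times under the alternatives run. With counts thinned to the smallest library, 13 log2 ratios, each a bound against a library at 0 counts, came out smaller by 0.49 to 1.00.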
